A study of Mus musculus with 12 samples.

Results

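Progenitor cells of the perivascular fat around the thoracic aorta were set against ICAM1+ preadipocytes of inguinal white fat, to describe how far the perivascular progenitors resemble inguinal cells that are already committed to fat. The comparison rests on 6 of the 12 RNA libraries of the series, chosen by their labels, 3 per population, and covers 18855 of 31099 genes, those that passed a count filter. All cells came from pups of the CD-1 strain, 3 days old, with males and females mixed, and were sorted after the tissue was digested with collagenase D and dispase II. Mice were pooled for each library. Libraries with the same number came from one pool, and no genotype or treatment other than the strain is given. The other 6 libraries, 3 of inguinal DPP4+ progenitors and 3 of perivascular preadipocytes, were used to place the values and to estimate the spread. They also entered the count filter and the scaling. ICAM1 and DPP4 were the inguinal sort markers, whereas the gate for the perivascular cells is not stated in the labels. Depot, stage of differentiation and sort gate therefore differ together between perivascular progenitors and ICAM1+ preadipocytes, and their shares of a difference cannot be told apart.

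White and brown fat cells arise from fibroblast-like progenitors. In inguinal fat, interstitial progenitors that carry DPP4 give rise to ICAM1+ preadipocytes, which express more of Pparg, the nuclear receptor that drives adipogenesis, and which form fat cells readily. Perivascular fat of the thoracic aorta is brown-like in mice, with thermogenic fat cells that can carry UCP1, the protein that uncouples respiration from ATP synthesis.

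Total counts ran from 16211157 to 18191251 in perivascular progenitors and from 15692839 to 25674461 in ICAM1+ preadipocytes. Levels are given as CPM, the share of a library's counts put on a common scale with TMM factors and not corrected for gene length, listed in the order of libraries 1, 2 and 3, and fold changes are perivascular progenitors over ICAM1+ preadipocytes on the log2 scale. A gene was called at an adjusted p under 0.05 in edgeR's quasi-likelihood test over all 18855 genes. Perivascular progenitor library 1 stood apart from libraries 2 and 3, with a chi-square per degree of freedom of 88 and 98.4 against 7.49 between the other 2. Perivascular preadipocyte library 1 also stood apart, at 111 and 192 against 26.8. Counts below that leave out 3 libraries leave out these and DPP4+ library 2, which was chosen with earlier results of these data known and by this measure lay no further from its group than DPP4+ library 3. Cebpb, an early adipogenic transcription factor, was at 33.8, 0.576 and 0.379 CPM in the 3 perivascular progenitor libraries and at 1.9, 1.82 and 0.874 in ICAM1+ preadipocytes (log2 fold change 2.92, SE 1.48, adjusted p = 0.224). Its mean was carried by library 1, and without that library its fold change was -1.66 (adjusted p = 0.497). Pdgfra, a surface receptor of fat progenitors (chromosome 5, 75152292 to 75198215), was abundant in both populations at 589.5 ± 177 and 623 ± 117 CPM (SD, n = 3), with a fold change of -0.08 (adjusted p = 0.883). In bulk RNA, fewer cells of a type and less RNA per cell cannot be told apart.

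Across all tested genes, 2669 were called (14.2%), of which 1302 were higher in perivascular progenitors (6.91%) and 1367 lower (7.25%). The change was at least 2-fold for 952 of the higher and 968 of the lower genes. For 8613 genes (45.7%) the 95% interval of the fold change lay inside 2-fold in either direction, and 7795 (41.3%) were neither called nor bounded in this way. All 3 libraries of one population lay above all 3 of the other for 7302 genes (38.7%). Fewer genes were called against ICAM1+ preadipocytes than against DPP4+ progenitors, where 4687 were called (24.9%), or against perivascular preadipocytes, where 6198 were called (32.9%). The last count was 4028 and 3964 without perivascular preadipocyte libraries 2 and 3 and 3916 without perivascular progenitor library 3. The 3 comparisons share the perivascular progenitor libraries, and the spread of the other group enters each count. The count against ICAM1+ preadipocytes was 1635 without their library 1, 1523 without library 2 and 1684 without library 3, and it was 4663 without the 3 libraries named above.

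Which group lay nearest to the perivascular progenitors depended on the measure. The mean absolute log2 difference over all tested genes between a perivascular progenitor library and a library of another group was 0.678 for ICAM1+ preadipocytes (0.598 to 0.777 over 9 pairs), 0.833 for DPP4+ progenitors (0.739 to 0.916) and 0.807 for perivascular preadipocytes (0.526 to 1.05). Between perivascular progenitor libraries it was 0.497 on average. By this measure libraries 2 and 3 were nearer to each ICAM1+ library than to any perivascular preadipocyte or DPP4+ library, whereas library 1 had its smallest distance to a perivascular preadipocyte library, at 0.526. Over the 2000 most variable genes the order changed, and the mean was 1.537 for perivascular preadipocytes, 1.58 for ICAM1+ preadipocytes and 2.21 for DPP4+ progenitors. There libraries 2 and 3 each had their smallest distance to perivascular preadipocyte library 1, at 1.377 for both, against 1.435 to 1.471 for the ICAM1+ libraries. Perivascular preadipocyte library 1 also had the highest Pearson r with libraries 2 and 3 over all tested genes among the other groups, at 0.948 and 0.946, where the highest for an ICAM1+ library was 0.946 and 0.942. These r values are across genes, which are not replicates.

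**Figure D1:**
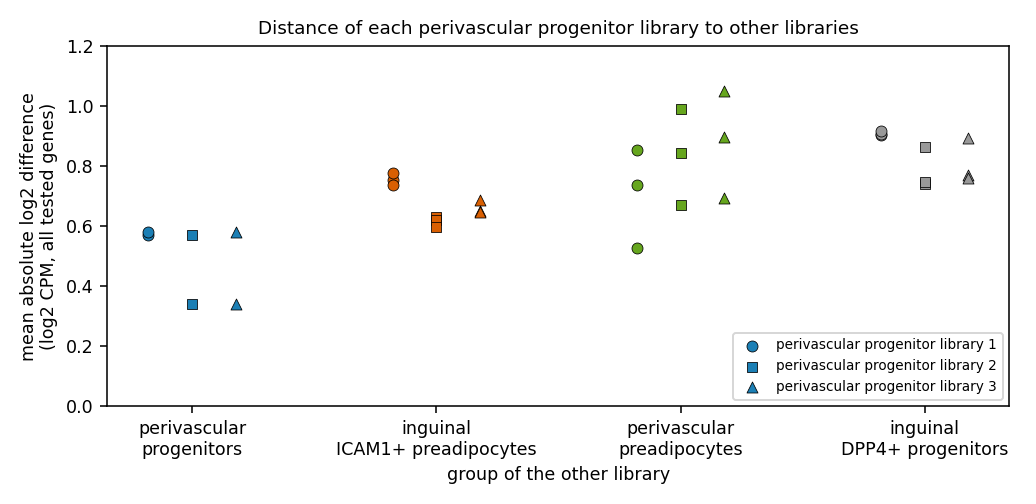
Each point is the mean absolute difference in log2 CPM over all tested genes (y axis) between 1 perivascular progenitor library (marker shape) and 1 library of the group on the x axis. The 9 points for ICAM1+ preadipocytes lie between 0.598 and 0.777, and those for perivascular preadipocytes spread from 0.526 to 1.05.

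The inguinal step from DPP4+ progenitors to ICAM1+ preadipocytes gave a scale on which perivascular progenitors could be placed. At 2-fold or more, 2401 genes were called on this step (12.7% of the tested genes), 1351 of them higher in ICAM1+ preadipocytes and 1050 higher in DPP4+ progenitors. Each was then tested in perivascular progenitors against the midpoint of the 2 inguinal groups, a contrast whose weights are orthogonal to those of the step. Among all tested genes 12.3% were called above this midpoint and 9.74% below it. Of the genes higher in ICAM1+ preadipocytes, 571 (42.3%) were called on the ICAM1+ side of the midpoint and 149 (11%) on the DPP4+ side. Of the genes higher in DPP4+ progenitors, 379 (36.1%) were called on the ICAM1+ side and 92 (8.76%) on the DPP4+ side. Perivascular progenitors thus lay on the committed side for more step genes than on the progenitor side, in both directions of the step. The median position was 0.61 log2 units from the midpoint toward ICAM1+ preadipocytes for the first set, where these cells themselves lay at 0.88, and 0.50 for the second set, where they lay at 0.95. With library totals in place of TMM factors as the scale, the counts on the ICAM1+ side became 1046 and 224. That scale moved the median fold change over all tested genes from 0.04 to 0.29 against the midpoint, from 0.05 to 0.48 against DPP4+ progenitors and from 0.05 to -0.12 against perivascular preadipocytes. The share of calls that were higher in perivascular progenitors moved from 55.9% to 79.3%, from 52.5% to 83.7% and from 48.9% to 33.7% in the same order. Against ICAM1+ preadipocytes it moved the median from 0.04 to 0.10 only. The count of 149 was 98 without ICAM1+ library 2, and the count of 92 was 56 and 57 without DPP4+ libraries 1 and 2 and 60 without ICAM1+ library 3.

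Fn1, which encodes fibronectin, was on the ICAM1+ side of the midpoint, at 1423, 3159 and 2939 CPM in perivascular progenitors, 3136, 3585 and 4332 in ICAM1+ preadipocytes and 17840, 19310 and 17290 in DPP4+ progenitors. All 3 libraries of perivascular progenitors lay below the lowest DPP4+ library, and they overlapped ICAM1+ preadipocytes. On the DPP4+ side was Scara5, a scavenger receptor for ferritin, at 483, 573 and 622 CPM against 74.4, 87.8 and 84.3 in ICAM1+ and 1419, 1428 and 1300 in DPP4+ cells (log2 fold change 2.77, SE 0.193, adjusted p = 2.6e-06). No group overlapped another for this gene, which lay between the inguinal populations. Of the genes higher in ICAM1+ preadipocytes, 83 lay between the inguinal groups with calls against both, 140 were called above ICAM1+ preadipocytes and 30 below DPP4+ progenitors. Of the genes higher in DPP4+ progenitors, 97 lay between them in this way, 72 were called below ICAM1+ preadipocytes and 17 above DPP4+ progenitors. Fn1 and Scara5 were chosen as abundant examples after their values were seen.

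**Figure D2:**
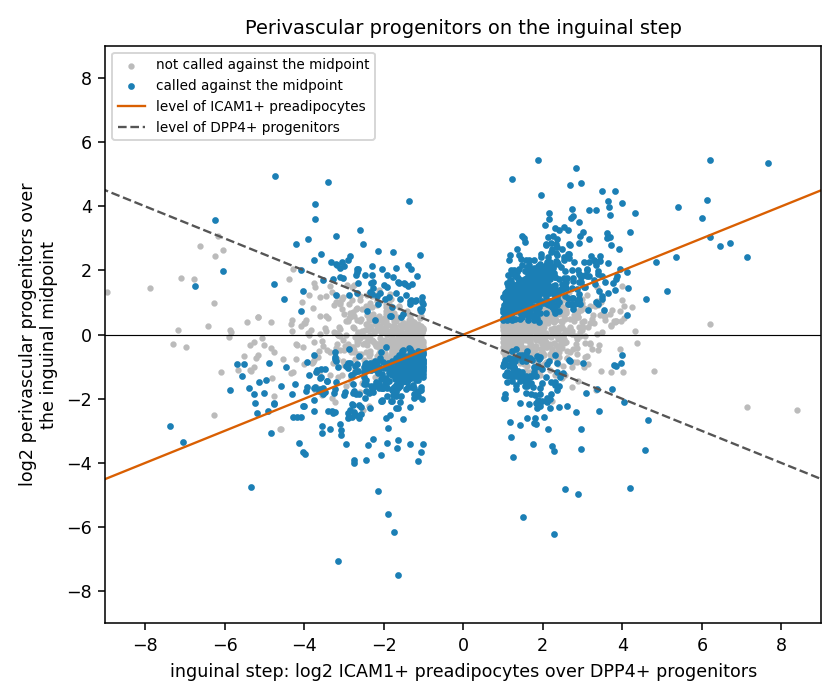
Each of 2401 genes called on the inguinal step at 2-fold or more is placed by the size of that step (x axis, log2) and by the level of perivascular progenitors over the inguinal midpoint (y axis, log2). Genes near the solid line have the level of ICAM1+ preadipocytes and genes near the dashed line that of DPP4+ progenitors, and 571 and 379 genes were called on the side of the solid line.

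The counts of all gene lists stand beside the shares over all tested genes, 6.91% higher and 7.25% lower. In the gene lists that follow, a list without a call in one direction had at most 1 gene at an unadjusted p under 0.05 in that direction with edgeR, other than 2 endothelial and 2 cartilage genes. DESeq2 called at most 1 gene there, and limma-voom at most 1 other than 4 higher and 2 lower genes of oxidative phosphorylation, 3 endothelial and 2 cartilage genes.

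Many markers of interstitial progenitors were above the ICAM1+ level. Of 20 members, 10 were higher in perivascular progenitors, 3 lower and 7 not called, where 6.91% of all tested genes were higher and 7.25% lower. Dpp4 is one of the 10 and was an inguinal sort marker. The list's median log2 fold change was 0.77 against 0.04 over all tested genes. The median against DPP4+ progenitors was -2.68. Pi16, a secreted peptidase inhibitor that marks the most upstream fibroblasts (chromosome 17, 29317680 to 29330593), was at 743, 811 and 771 CPM in perivascular progenitors and 29.5, 26.8 and 22.5 in ICAM1+ preadipocytes (log2 fold change 4.88, SE 0.476, adjusted p = 3.72e-05). In DPP4+ progenitors it stood at 3106, 2702 and 2594 CPM, so that perivascular progenitors lay well above the committed cells and below the inguinal progenitors, without overlap with either. Bmp7, a BMP ligand (chromosome 2, 172868012 to 172940321), was at 18.9, 4.2 and 3.79 against 0.858, 0.542 and 0.668 CPM (log2 fold change 3.72, SE 0.609, adjusted p = 0.00146). Its libraries did not overlap, although library 1 was the highest of the 3 perivascular progenitor libraries by a wide margin. Without library 1 the fold change was 2.57 (adjusted p = 0.000134).

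Cd55, Wnt2 and Akr1c18 were called against DPP4+ progenitors and not against ICAM1+ preadipocytes. Cd55, a complement regulator at the cell surface (chromosome 1, 130439027 to 130462744), was at 93.8, 85.7 and 92.6 CPM in perivascular progenitors, 107, 114 and 90.8 in ICAM1+ preadipocytes and 1029, 935 and 1018 in DPP4+ progenitors. Its fold change over ICAM1+ preadipocytes was -0.2 (95% interval -0.49 to 0.09, adjusted p = 0.374). Both populations were far below the 3 DPP4+ libraries, and the interval bounds the difference between them within 2-fold. Wnt2, a Wnt ligand (chromosome 6, 17988940 to 18030585), had a fold change of -0.19 (95% interval -0.56 to 0.17) with means of 20.9 and 23.9 CPM against 392 in DPP4+ progenitors. Akr1c18, a hydroxysteroid dehydrogenase that inactivates progesterone (chromosome 13, 4132615 to 4150654), had means of 11.2 and 10 CPM (95% interval -0.33 to 0.67) against 1337. Fbn1, which encodes the microfibril protein fibrillin 1 and shares 20.1% of its exon length with other genes, stood at 1330, 1144 and 7608 CPM in the same order.

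Tppp3, a tubulin-binding protein gene (chromosome 8, 105467493 to 105471526), was lower than in ICAM1+ preadipocytes, at 268, 199 and 188 against 678, 601 and 616 CPM (log2 fold change -1.53, SE 0.185, adjusted p = 0.000165). The libraries did not overlap, so this progenitor marker went against the direction of Pi16. Cd34, a sialomucin of stem and endothelial cells (chromosome 1, 194938819 to 194961279), was at 1105 against 635 CPM (log2 difference 0.8, adjusted p = 0.0371), a call that was lost in 10 of 21 other settings, 9 of them without 1 inguinal or perivascular progenitor library (adjusted p = 0.0533 to 0.126). Dact2, which encodes a Wnt pathway regulator (log2 difference 1.74, adjusted p = 0.0496), was at 1.19 against 0.377 CPM and lost its call in 16 of the 20 settings that tested it, including the replicate block (1.71, adjusted p = 0.0568), and its highest value, 0.183, came without ICAM1+ library 2 (1.23). Ly6a, which encodes the surface marker SCA1 (chromosome 15, 74994877 to 74998031), was lower, at 558, 397 and 359.6 against 897, 814 and 816 CPM (log2 fold change -0.94, SE 0.204, adjusted p = 0.00819). It is one of 6 members of the Ly6 family that were lower, of 12 tested, with 2 higher. The count of progenitor markers called higher was 6, 5 and 6 without ICAM1+ libraries 1, 2 and 3, and 6 without perivascular progenitor library 3. Dpp4 and Icam1 themselves stood at 89.4 against 32 and at 96 against 497 CPM. Since the inguinal sorts used both, the values of ICAM1+ preadipocytes describe their gate.

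**Figure D3:**
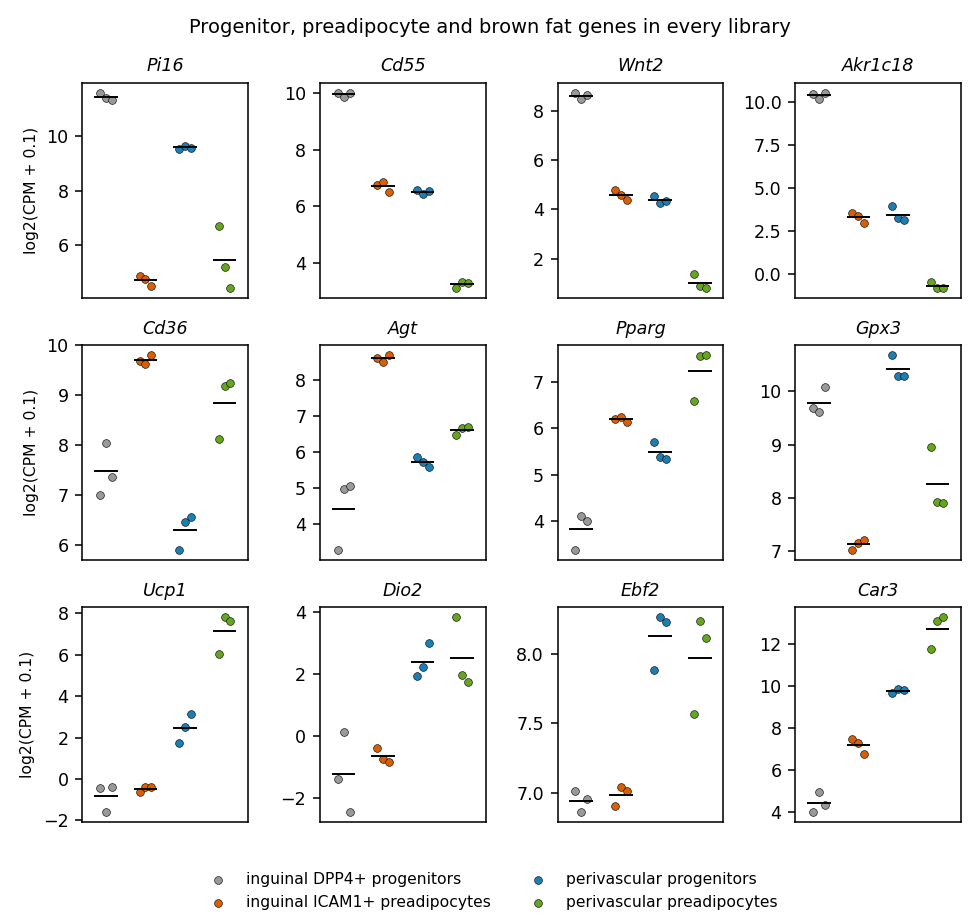
Each point is 1 library, as log2(CPM + 0.1), for 12 genes in the 4 groups, and the bar is the mean of 3 libraries. Cd55, Wnt2 and Akr1c18 lie at like levels in perivascular progenitors and ICAM1+ preadipocytes, Pi16 lies between the inguinal groups, and Cd36 and Agt lie highest in ICAM1+ preadipocytes.

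Many preadipocyte markers were lower in perivascular progenitors. Of 19 tested members, 10 were lower, 3 higher and 6 not called, with a median of -0.98 against ICAM1+ preadipocytes and 0.92 against DPP4+ progenitors. Icam1 is one of the 10 and was a sort marker. The lower count was 7 without perivascular progenitor library 3 and 15 in a fit of the 2 groups alone. Cd36, the fatty acid receptor (chromosome 5, 17781690 to 17888801), was at 59.6, 88.1 and 94.8 CPM in perivascular progenitors and 826, 794 and 897 in ICAM1+ preadipocytes (log2 fold change -3.38, SE 0.339, adjusted p = 4.58e-05). The 3 perivascular progenitor libraries were also below the 3 DPP4+ libraries, at 129, 265 and 164 CPM (log2 fold change -1.2, adjusted p = 0.0138). Agt, which encodes angiotensinogen (chromosome 8, 124556534 to 124569706), was at 58.1, 53 and 48.2 against 389, 363 and 415 CPM (log2 fold change -2.87, SE 0.339, adjusted p = 0.000139). Perivascular preadipocytes stood at 88.3, 102 and 103 CPM, above all perivascular progenitor libraries and below all ICAM1+ libraries, although the difference from perivascular progenitors was not called (log2 fold change -0.88, adjusted p = 0.0502). Apoe, the lipid carrier of lipoproteins (chromosome 7, 19696109 to 19699188), was at 847, 518 and 409 against 1917, 1707 and 1589 CPM (log2 fold change -1.56, SE 0.364, adjusted p = 0.0129), without overlap. Leaving out perivascular progenitor library 3 ended the call (-1.35, adjusted p = 0.0534).

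Gpx3, a secreted glutathione peroxidase (chromosome 11, 54902453 to 54910377), was the marker furthest in the other direction, at 1645, 1246 and 1244 against 130.3, 143 and 149 CPM (log2 fold change 3.29, SE 0.287, adjusted p = 1.51e-05). All perivascular progenitor libraries were above all 9 others, with DPP4+ progenitors next at 821, 784 and 1080 CPM. On the inguinal step Gpx3 was called lower in ICAM1+ preadipocytes (log2 fold change -2.67, adjusted p = 2.98e-05), against its place in the preadipocyte list. Dlk1, an inhibitor of adipogenesis that marks preadipocytes, was at 1821, 1878 and 1374 against 2318, 2392 and 2372 CPM (log2 difference -0.48, adjusted p = 0.0937). It was called lower without perivascular preadipocyte library 1 (-0.51, adjusted p = 0.0212). Pparg (chromosome 6, 115360951 to 115490399) was at 52.2, 41.7 and 40.3 against 73.7, 76.1 and 69.8 CPM (log2 fold change -0.71, SE 0.25, adjusted p = 0.0804). All 3 perivascular progenitor libraries were below the ICAM1+ libraries, the difference did not pass the test, and it passed in 5 of 21 other settings, 1 of them without perivascular preadipocyte library 1 (-0.74, adjusted p = 0.00869). Fabp4, a fatty acid binding protein of fat cells (chromosome 3, 10204088 to 10208576), was at 237, 266 and 225 against 619, 522 and 563 CPM (log2 fold change -1.23, SE 0.393, adjusted p = 0.0567). It passed in 8 other settings, among them the fit with the replicate block (-1.25, adjusted p = 0.0486) and the fits that left out perivascular preadipocyte library 1 (adjusted p = 0.00211) and library 3 (adjusted p = 0.0336), both at -1.25. Cd9, a tetraspanin used to sort adipose progenitors, was at 169.5 against 198 CPM (log2 difference -0.22, adjusted p = 0.49). Cd24a, a surface protein of early adipogenic progenitors, was higher at 38.1 against 16.9 CPM (log2 difference 1.17, adjusted p = 0.00881). F3, or tissue factor, a marker of a stromal population that restrains adipogenesis, was higher at 444 against 119.9 CPM (log2 difference 1.89, adjusted p = 0.00105).

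Genes of lipid storage were mostly not called. Of 22 adipocyte and lipid genes, 5 were higher in perivascular progenitors and 1 lower, with a median of 0.6. Over all tested genes 6.91% were higher, a smaller share, and 7.25% lower. Car3, a carbonic anhydrase abundant in fat cells (chromosome 3, 14863512 to 14872523), was at 795, 911 and 898 CPM in perivascular progenitors and 178, 157 and 109.8 in ICAM1+ preadipocytes (log2 fold change 2.55, SE 0.368, adjusted p = 0.000602). Gpd1, which makes glycerol phosphate for triglycerides (chromosome 15, 99717515 to 99725005), was at 39.9, 70.6 and 58.8 against 8.39, 7.59 and 7.5 CPM (log2 fold change 2.85, SE 0.468, adjusted p = 0.00148). Both were called higher still in perivascular preadipocytes, at 3439 to 9738 and 202 to 531 CPM. Adipoq, the hormone adiponectin (chromosome 16, 23146536 to 23158028), was at 90.4, 95.8 and 91.2 against 29.5, 32.6 and 21.2 CPM (log2 difference 1.73, adjusted p = 0.0626) and was not called. Leaving out DPP4+ library 1 made it a call (1.73, adjusted p = 0.0094), as did leaving out perivascular preadipocyte library 1 (1.71, adjusted p = 0.0312). Cebpa, a partner of Pparg, was at 11, 3.97 and 3.52 against 3.06, 2.75 and 3.44 CPM (log2 difference 1.0, adjusted p = 0.201). Fasn, which encodes fatty acid synthase (chromosome 11, 120805846 to 120824547), differed least of the fat cell genes, with means of 128 and 127 CPM and a fold change of 0.01 (95% interval -0.46 to 0.48). The intervals also lay inside 2-fold for Dgat2, Dgat1, Lpin1, Pnpla2, Slc2a4 and Acaca, all enzymes or transporters of lipid and glucose metabolism. Cfd, which encodes adipsin (chromosome 10, 79890853 to 79892655), was the 1 gene called lower, at 0.62, 0.461 and 1.19 against 9.68, 32.8 and 11.3 CPM (log2 fold change -4.56, SE 1.11, adjusted p = 0.0159). That call was lost without ICAM1+ library 2 (-3.78, adjusted p = 0.0603), without perivascular progenitor library 2 (-4.31, adjusted p = 0.0522) and with limma-voom weights. The count of 5 higher genes was 3 without any 1 ICAM1+ library and without perivascular progenitor library 2 or 3.

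Many thermogenic genes were higher in perivascular progenitors. Of 22 tested members, 10 were higher, none lower and 12 not called, with a median of 1.03, and without ICAM1+ library 3 the higher count was 6. Ucp1 (chromosome 8, 83290352 to 83298452) was at 3.25, 5.53 and 8.66 CPM in perivascular progenitors and 0.551, 0.658 and 0.668 in ICAM1+ preadipocytes (log2 fold change 3.19, SE 0.53, adjusted p = 0.00161). Perivascular preadipocytes held 64.8 to 225 CPM, far above every progenitor library (log2 fold change -4.8, adjusted p = 5.6e-05). Dio2, which activates thyroid hormone in brown fat (chromosome 12, 90724552 to 90738438), was at 3.77, 4.55 and 8.01 against 0.674, 0.503 and 0.463 CPM (log2 fold change 3.31, SE 0.682, adjusted p = 0.00612). Ebf2, a transcription factor of brown preadipocytes (chromosome 14, 67233292 to 67430918), was at 236, 306 and 299.6 against 120.2, 132 and 129 CPM (log2 fold change 1.14, SE 0.177, adjusted p = 0.000985). In perivascular preadipocytes it stood at 189, 301 and 276 CPM, a range that overlapped the perivascular progenitors. Prdm16, a coregulator of brown fat identity (chromosome 4, 154316125 to 154636873), was at 5.63, 9.44 and 11.2 against 3.49, 3.17 and 3.03 CPM (log2 fold change 1.43, SE 0.334, adjusted p = 0.0126). Its adjusted p was 0.0543 without ICAM1+ library 2, 0.054 without library 3 and 0.0502 without perivascular progenitor library 3. Cidea, a lipid droplet protein of brown fat, was at 1.93 against 0.25 CPM (log2 difference 2.94, adjusted p = 0.00865), and Plin5, which joins droplets to mitochondria, at 2.74 against 0.259 CPM (log2 difference 3.31, adjusted p = 0.0124). The Plin5 call was lost without ICAM1+ library 1 (adjusted p = 0.0529) or 3 (0.0549). Zic1, a brown fat marker of some depots, had at most 5 counts in any of the 12 libraries and was not tested.

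Nuclear genes of the respiratory chain were not called in the fit of all 12 libraries. None of the 36 tested was called there by edgeR, with 0 at an unadjusted p under 0.05. However, edgeR called 4 of them higher in a fit of the 6 libraries alone, 3 without perivascular preadipocyte library 1, and 3 higher and 1 lower without the 3 libraries that were named above. In the fit of all libraries the interval lay inside 2-fold for 31, with a median of 0.08. Atp5b, the catalytic subunit of ATP synthase, was at 986, 943 and 970.4 against 863, 851 and 849 CPM (95% interval -0.28 to 0.64). The summed level of the list was 5687 to 6527 CPM in perivascular progenitors, 5548 to 6134 in ICAM1+ preadipocytes and 10350 to 24490 in perivascular preadipocytes. Of 13 genes encoded in mitochondria, mt-Nd4l, a subunit of complex I, was called higher at 0.791 against 0.129 CPM (log2 difference 2.54, adjusted p = 0.0262) and the other 12 were not called. Over all tested genes 6.91% were higher, and the list's share was near this. The mt-Nd4l call was lost without ICAM1+ library 1 (2.07, adjusted p = 0.0776) or 2 (2.23, 0.126) and without perivascular progenitor library 1 (2.31, 0.0688) or 3 (2.67, 0.051). Without ICAM1+ library 3 its value was 3.91 (adjusted p = 0.0112).

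Genes of body position gave large contrasts in both directions. Hox genes are expressed along the body axis in the order of their paralogue groups, low numbers toward the head. Of 11 tested genes of groups 1 to 5, 7 were higher in perivascular progenitors and none lower, with a median of 2.14. Of 6 tested genes of groups 9 to 13, 5 were lower and none higher, with a median of -4.16. Groups 6 to 8 held 3 higher and 3 lower genes of 7. Hoxb5 (chromosome 11, 96303336 to 96306121) was at 8.57, 9.56 and 7.2 CPM against 0.368, 0.155 and 0.36 (log2 fold change 4.87, SE 0.351, adjusted p = 3.48e-06), and Hoxc10 (chromosome 15, 102966796 to 102971893) at 0.103, 0.0576 and 0.0541 against 19.6, 19.6 and 22.6 (log2 fold change -8.02, SE 0.356, adjusted p = 1.01e-07). Hoxa10 (chromosome 6, 52231197 to 52240854) was at 0.413, 0.0576 and 0.379 against 28.1, 28.3 and 24.9 CPM (log2 fold change -6.52, SE 0.417, adjusted p = 1.34e-06). In all 3 genes the other group of each depot stood on the same side, with DPP4+ progenitors at 0.286 to 0.41, 13.1 to 14.8 and 23.5 to 28.9 CPM and perivascular preadipocytes at 4.45 to 7.23, 0 to 0.0536 and 0.0978 to 0.393. Hoxa5, which is also known from fat development, was at 36.4, 7.08 and 4.98 against 1.23, 1.59 and 1.18 CPM (log2 fold change 3.58, SE 0.651, adjusted p = 0.0028), with library 1 far above libraries 2 and 3. Without library 1 the fold change was 2.17 (adjusted p = 0.000319). The count of 7 was 4 without ICAM1+ library 1 or 3. The lower count of groups 6 to 8 was 1 without ICAM1+ library 2 or perivascular progenitor library 3. Several Hox genes share exon length with other genes, Hoxa3 27.1% with transcripts that are not Hox genes and Hoxc10 8.7% with Hoxc5. The library kit does not mark strand, so that counts of such members are uncertain.

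Transcription factors of the limb and body wall were mostly lower as well. Of 19 tested members, 10 were lower and 2 higher, with a median of -2.41, where 7.25% of all tested genes were lower and 6.91% higher. Tbx15, a T-box factor of trunk skin, muscle and fat (chromosome 3, 99240381 to 99354259), was at 1.65, 0.979 and 1.62 CPM in perivascular progenitors and 79, 75 and 82.5 in ICAM1+ preadipocytes (log2 fold change -5.78, SE 0.323, adjusted p = 5.15e-07). Shox2, a homeobox factor of the proximal limb (chromosome 3, 66971727 to 66981771), was at 0.31, 0.288 and 0.487 against 12.9, 15.4 and 14.7 CPM (log2 fold change -5.28, SE 0.323, adjusted p = 9.81e-07). En1, a homeobox factor of ventral limb and trunk dermis, had 3 counts in the perivascular progenitor libraries together against 260, a ratio of 77.7 (95% counting interval 26.3 to 379). Its fitted log2 fold change was -6.11, or -7.00 without perivascular progenitor library 2 (adjusted p = 0.000187). Irx5, an Iroquois factor, had no count there and was at least 11.7-fold lower, against a floor of 3 counts over the group. Meis1, a Hox cofactor chosen after its value was seen, was higher at 82.9, 94.8 and 102 against 35.9, 40.1 and 38.1 CPM (log2 fold change 1.29, SE 0.148, adjusted p = 0.000111).

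Transcription factors of cardiac outflow and neural crest gave calls in both directions. Of 15 tested members, 4 were higher and 3 lower, with a median of 1.26. Tcf21, an epicardial and visceral fibroblast factor (chromosome 10, 22817281 to 22820174), was at 9.19, 8.23 and 6.66 CPM in perivascular progenitors and 0.184, 0.155 and 0.308 in ICAM1+ preadipocytes (log2 fold change 5.19, SE 0.537, adjusted p = 5.48e-05). Foxc1, a forkhead factor of the outflow tract (chromosome 13, 31806633 to 31812476), was at 13.6, 2.13 and 2.6 against 0.429, 0.503 and 0.36 CPM (log2 fold change 3.79, SE 0.69, adjusted p = 0.00282). Tcf21 was high in all 3 perivascular progenitor libraries, whereas Foxc1 was highest in library 1 and had a fold change of 2.44 without it (adjusted p = 0.00145). Tfap2b, a neural crest factor, was lower at 0.0748 against 0.973 CPM (log2 difference -3.63, adjusted p = 0.00234), or -4.90 without perivascular progenitor library 2 (adjusted p = 0.0025). The higher count was 7 without perivascular progenitor library 3, and the lower count 6 without its library 1.

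Several elastic fibre genes were higher in perivascular progenitors, while several basement membrane genes were lower. Eln, the elastin gene (chromosome 5, 134702593 to 134747323), was at 6248, 9938 and 10260 CPM in perivascular progenitors and 1495, 1458 and 1600 in ICAM1+ preadipocytes (log2 fold change 2.54, SE 0.408, adjusted p = 0.00127). DPP4+ progenitors stood at 6127, 6223 and 5832 CPM, so that ICAM1+ preadipocytes were the lowest of these 3 populations. Mfap4, a microfibril protein (chromosome 11, 61485431 to 61488900), was at 3750, 2979 and 3314 against 994, 1005 and 931 CPM (log2 fold change 1.78, SE 0.392, adjusted p = 0.00926). Fbln5, which joins elastin to microfibrils (chromosome 12, 101746565 to 101819055), was at 2230, 1913 and 2271 against 654, 675 and 672 CPM (log2 fold change 1.68, SE 0.374, adjusted p = 0.00974), and its relatives Fbln1 (log2 difference 2.65, adjusted p = 0.000506) and Fbln2 (log2 difference 1.4, adjusted p = 0.00105) were also higher. For Eln, Mfap4 and Fbln5 the 2 populations did not overlap. The fibrillar collagen genes Col1a1, Col1a2 and Col3a1 had fold changes of -0.09, 0.21 and -0.2, none called. Of 27 fibrillar and elastic matrix genes, 6 were higher and 3 lower, where 6.91% of all tested genes were higher and 7.25% lower. The list's median was -0.09. The lower genes were Col5a3, Col6a3 and Col12a1, with Col5a3 (chromosome 9, 20770050 to 20815067) at 197, 444 and 372 against 1413, 1452 and 1537 CPM (log2 fold change -2.12, SE 0.241, adjusted p = 0.00011). Without perivascular preadipocyte library 1, which enters the comparison through the count filter, the scaling and the estimate of the spread, the lower count was 7. Ogn, a small matrix proteoglycan, was higher at 2048 against 593 CPM (log2 difference 1.79, adjusted p = 0.000198).

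Col4a1 and Col4a2, the main collagens of basement membranes, were lower. Col4a1 (chromosome 8, 11198423 to 11312826) was at 494, 1003 and 983 against 2598, 2883 and 3297 CPM (log2 fold change -1.82, SE 0.323, adjusted p = 0.0024), and DPP4+ progenitors, at 327, 554 and 408 CPM, overlapped perivascular progenitors. Col18a1, a collagen of vascular and epithelial basement membranes (chromosome 10, 77052178 to 77166548), was at 29.4, 62.1 and 55.8 against 253, 275 and 301 CPM (log2 fold change -2.49, SE 0.288, adjusted p = 0.000119). Of 14 basement membrane genes outside the preadipocyte list, 3 were lower, namely Col18a1, Lamc1 and Lamb1, and 2 higher, the Col4a3 and Col4a4 chains. The list's summed level was 3341 to 5594 CPM against 5884 to 7511. The lower count was 5 without the 3 libraries named above.

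Several secreted Wnt inhibitors and some ligands were higher in perivascular progenitors. Of 25 tested Wnt pathway genes, 12 were higher and 2 lower (1 with the replicate block), with a median of 1.01. The higher count was 7 without any 1 of the ICAM1+ libraries. Over all tested genes 6.91% were higher and 7.25% lower, and the list's lower share was near the latter. Sfrp1, a secreted inhibitor (chromosome 8, 23411502 to 23449632), was at 669.5, 133 and 137 CPM in perivascular progenitors and 12.9, 16.2 and 12.6 in ICAM1+ preadipocytes (log2 fold change 4.49, SE 0.583, adjusted p = 0.000283). The groups did not overlap, and library 1 was the highest. Without it the fold change was 3.29 (adjusted p = 2.46e-06). Frzb, another secreted inhibitor (chromosome 2, 80411970 to 80447625), was at 8.83, 8 and 11.4 against 0.245, 0.426 and 0.103 CPM (log2 fold change 5.09, SE 0.874, adjusted p = 0.00196), or 5.74 without ICAM1+ library 2 (adjusted p = 0.00983). Wnt10b, a ligand that represses adipogenesis (chromosome 15, 98770712 to 98778150), was at 1.47 against 0.175 CPM (log2 difference 3.11, adjusted p = 0.000536), and DPP4+ progenitors held 21.6. Axin2, a common target of canonical Wnt signalling, was at 1.08, 2.36 and 1.89 against 2.08, 1.32 and 1.44 CPM (log2 difference 0.15, adjusted p = 0.872). Lef1, another target, was under 1 CPM on average in both. Most markers of mesothelium tested below were higher in the same libraries and share Rspo1, a Wnt enhancer, with this list (log2 difference 3.52, adjusted p = 0.00116, or 2.61 without library 1, adjusted p = 0.000632), and their part in the Wnt counts was not tested.

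In the TGF-beta list, 6 of 18 tested genes were higher and 2 lower, with a median of 0.17. Over all tested genes 6.91% were higher and 7.25% lower, and the list's lower share was near the latter. Ltbp2, a microfibril protein of the latent TGF-beta binding family (chromosome 12, 84783212 to 84876532), was at 69.1, 128 and 127 against 10.7, 9.76 and 10.1 CPM (log2 fold change 3.4, SE 0.461, adjusted p = 0.000377). Tgfb3, a ligand (chromosome 12, 86056745 to 86079041), was higher at 339, 368 and 413 against 86.3, 88.7 and 97.9 CPM (log2 difference 2.04, adjusted p = 0.00687), while Tgfb1, chosen after its value was seen, was lower at 4.44, 5.41 and 4.65 against 12.9, 16.1 and 15.6 (log2 difference -1.62, adjusted p = 0.000201). The ligands of this family thus went in opposite directions. Tgfbi, a matrix protein induced by TGF-beta, was at 635 against 172 CPM (log2 difference 1.89, adjusted p = 0.000972). The higher count was 3 without ICAM1+ library 2 or 3.

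Among 22 BMP pathway genes, 4 were higher and 2 lower (1 with the replicate block), with a median of 0.5. Over all tested genes 6.91% were higher and 7.25% lower, and the list's lower share was near the latter. Gdf10, a BMP family ligand (chromosome 14, 33923587 to 33937983), was at 657, 375 and 388 against 98.9, 110.3 and 92.1 CPM (log2 fold change 2.24, SE 0.408, adjusted p = 0.00287), and Bmp4, which commits progenitors to fat, at 10.6 against 3 (log2 difference 1.81, adjusted p = 0.000464). Bmp4 was highest in DPP4+ progenitors, at 55.5 CPM. Chrdl1, a BMP antagonist, was lower at 133 against 465 CPM (log2 difference -1.81, adjusted p = 0.0115). The targets Id1, Id2 and Id3 had fold changes of -0.28, 0.38 and 0.51, none called. The higher count was 2 without any 1 ICAM1+ library or perivascular progenitor library 1, and 7 without perivascular preadipocyte library 1.

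Of 17 retinoid genes, 7 were higher and 2 lower, with a median of 0.7. Aldh1a3, which makes retinoic acid (chromosome 7, 66390890 to 66427517), was at 47.7, 55.1 and 52.1 against 13.7, 14.2 and 14.7 CPM (log2 fold change 1.86, SE 0.128, adjusted p = 2.45e-06), and DPP4+ progenitors held 628 to 679. Dhrs3, which turns retinal back to retinol (chromosome 4, 144892827 to 144928209), was at 79.8, 114 and 109 against 20.9, 20.1 and 19.6 CPM (log2 fold change 2.32, SE 0.169, adjusted p = 3.48e-06). The groups did not overlap for either gene. Rarb, a retinoic acid receptor and target (log2 difference 2.63, adjusted p = 7.53e-05), shares 38.4% of its exon length with other genes. In the list of IGF and growth genes, 2 of 18 were higher and 4 lower, where 6.91% of all tested genes were higher and 7.25% lower. Igf1, the growth factor (chromosome 10, 87858265 to 87937042), was at 929, 1090 and 1146 against 470, 483 and 495 CPM (log2 fold change 1.13, SE 0.132, adjusted p = 0.000129), and Igfbp5, a binding protein, at 367 against 122 (log2 difference 1.59, adjusted p = 0.0017). H19, an imprinted noncoding RNA (chromosome 7, 142575529 to 142578143), was lower at 629.6, 631 and 563 against 1489, 1391 and 1256 CPM (log2 fold change -1.18, SE 0.239, adjusted p = 0.00543). The lower count was 2 without any 1 ICAM1+ library or perivascular progenitor library 3.

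Many genes of mitosis were higher in perivascular progenitors. Of 24 members, 13 were higher and none lower, with a median of 0.73, whereas of 22 genes of DNA replication 5 were higher, none lower, with a median of 0.41. Summed over the list, mitosis genes took 989 to 1090 CPM in perivascular progenitors, 575 to 670 in ICAM1+ preadipocytes, 160.1 to 226 in DPP4+ progenitors and 1826 to 2615 in perivascular preadipocytes. The perivascular progenitors thus stood above both inguinal groups and below the preadipocytes of their own depot. Plk1, a kinase that drives entry into mitosis (chromosome 7, 122159439 to 122169873), was at 22.8, 26.3 and 24.7 against 9.56, 11.1 and 9.3 CPM (log2 fold change 1.3, SE 0.229, adjusted p = 0.0024). Ccnb1, the cyclin of mitotic entry (chromosome 13, 100778650 to 100786570), was at 96, 92.5 and 99.9 against 46.1, 44.5 and 33.2 CPM (log2 fold change 1.22, SE 0.193, adjusted p = 0.00115), and Aurka, a spindle kinase (chromosome 2, 172356190 to 172370535), at 24.6, 25.4 and 24.4 against 11.8, 12.7 and 9.56 (log2 fold change 1.12, SE 0.187, adjusted p = 0.00162). For these 3 genes all perivascular progenitor libraries lay above all ICAM1+ libraries. The mitosis count was 8 and 7 without ICAM1+ libraries 2 and 3, and 21 without the 3 libraries named above. The replication count was 0, 1 and 2 without ICAM1+ libraries 1, 2 and 3, 2 and 1 without perivascular progenitor libraries 2 and 3, and 3 without perivascular preadipocyte library 3. Cdkn1a, which encodes the cell cycle inhibitor p21 (chromosome 17, 29090976 to 29100727), was lower at 30.5, 34.2 and 29.7 against 115, 108 and 90.3 CPM (log2 fold change -1.73, SE 0.256, adjusted p = 0.000729).

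Promoters of mitosis genes commonly carry a CCAAT box and, close to the start site, the element TTTGAA, known as the cell cycle genes homology region. The RefSeq promoters of Plk1 (chr7:122159185-122159484, plus strand) and Aurka (chr2:172370521-172370820, minus strand) are shown because these called mitosis genes hold both motifs. They run 5′ to 3′ from 250 bases before to 50 after the start in build GRCm38.p6, with CCAAT and TTTGAA in capitals.
Plk1: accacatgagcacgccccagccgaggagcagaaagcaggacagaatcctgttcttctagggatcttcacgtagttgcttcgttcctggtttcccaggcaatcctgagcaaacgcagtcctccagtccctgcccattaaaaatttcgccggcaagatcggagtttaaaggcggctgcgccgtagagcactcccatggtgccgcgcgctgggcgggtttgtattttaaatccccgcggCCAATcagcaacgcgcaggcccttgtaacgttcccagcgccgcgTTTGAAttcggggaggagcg
Aurka: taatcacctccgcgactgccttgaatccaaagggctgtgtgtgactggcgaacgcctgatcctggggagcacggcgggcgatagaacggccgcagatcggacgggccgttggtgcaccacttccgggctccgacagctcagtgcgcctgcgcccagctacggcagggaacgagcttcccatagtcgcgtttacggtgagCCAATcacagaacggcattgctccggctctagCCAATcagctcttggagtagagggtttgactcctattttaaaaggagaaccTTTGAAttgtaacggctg
Of the 18 tested mitosis genes with a promoter in the RefSeq table, 16 held CCAAT on either strand (88.9%) and 13 held TTTGAA (72.2%), against 42.3% and 14.7% of all 12294 tested genes with a promoter. Of the 17 replication genes with a promoter, 12 held CCAAT (70.6%) and 1 held TTTGAA (5.9%). The 2 motifs share no bases in either sequence printed above. A match describes these letters in this window and not the binding of a factor.

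Many chemokines and cytokines induced in inflammation were lower in perivascular progenitors. Of 19 tested members, 9 were lower, 2 higher and 8 not called, where 7.25% of all tested genes were lower and 6.91% higher. The list's median was -1.28. Ccl2, which attracts monocytes (chromosome 11, 82035571 to 82037453), was at 24.3, 17.8 and 17.6 CPM in perivascular progenitors and 257, 218 and 199.7 in ICAM1+ preadipocytes (log2 fold change -3.5, SE 0.212, adjusted p = 9.26e-07). Cxcl2, which attracts neutrophils (chromosome 5, 90903871 to 90905938), was at 0.568, 1.38 and 0.325 against 19.2, 16.9 and 17.5 CPM (log2 fold change -4.56, SE 0.367, adjusted p = 8.37e-06), or -5.31 without perivascular progenitor library 2 (adjusted p = 2.41e-06). Il6, an inflammatory cytokine chosen after its value was seen, was at 9.81, 9.21 and 10.3 against 109, 96.6 and 85.6 CPM (log2 fold change -3.31, SE 0.185, adjusted p = 5.15e-07). For all 3 genes the populations did not overlap, and DPP4+ progenitors lay between them at 95.7 to 145, 12.7 to 14.5 and 37.3 to 54.6 CPM. The interferon-induced chemokine Cxcl10 (log2 difference -4.49, adjusted p = 3.22e-07) and the lymphocyte chemokine Ccl19 (log2 difference -5.84, adjusted p = 3.49e-05) were also lower. The 2 higher genes, named because they were the only ones, were Il33, an alarmin of stromal cells (429 against 65.9 CPM, log2 difference 2.7, adjusted p = 4.18e-05), and Cxcl13, a B cell chemokine (50.5 against 9.93, log2 difference 2.35, adjusted p = 0.000172).

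The promoters of Cxcl2 (chr5:90903649-90903948, plus strand) and Il6 (chr5:30012864-30013163, plus strand) are shown because they hold GGGANTTTC, a form of the NF-kappa-B site, and because these genes were among the furthest below ICAM1+ preadipocytes. The window, build and source are those of the mitosis promoters, and the motif is in capitals.
Cxcl2: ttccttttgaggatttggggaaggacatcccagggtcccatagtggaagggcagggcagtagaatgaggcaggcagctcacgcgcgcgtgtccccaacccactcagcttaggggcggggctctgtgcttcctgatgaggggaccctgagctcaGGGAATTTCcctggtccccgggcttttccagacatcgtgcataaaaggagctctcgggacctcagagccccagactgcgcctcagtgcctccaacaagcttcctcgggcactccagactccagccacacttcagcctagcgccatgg
Il6: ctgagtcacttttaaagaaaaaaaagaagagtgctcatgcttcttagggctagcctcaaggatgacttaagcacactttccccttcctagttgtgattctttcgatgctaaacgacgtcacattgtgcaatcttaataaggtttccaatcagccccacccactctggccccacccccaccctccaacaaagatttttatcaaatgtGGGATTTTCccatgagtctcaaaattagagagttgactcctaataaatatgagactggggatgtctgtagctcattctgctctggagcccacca
Of 12 tested chemokine and cytokine genes with a RefSeq promoter, 5 held this motif on either strand (41.7%), against 1.2% of all tested genes with a promoter. They were Cxcl1, Cxcl2, Il6, Cxcl9 and Csf1, of which the first 3 were called lower and Cxcl9 (log2 difference -0.88, adjusted p = 0.0969) and Csf1 (log2 difference -0.64, adjusted p = 0.0705) were not called. The interferon element TTTCNNTTT was in 11 of 17 interferon response promoters (64.7%) and 2 of 9 of MHC class I genes (22.2%), against 9.7% of all.

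Early response and heat shock genes were lower as well. Of 24 genes of the dissociation and early response list, 16 were lower and none higher, with a median of -1.51. Hspa1b, an inducible heat shock protein gene (chromosome 17, 34956436 to 34959238), was at 73.1, 71.6 and 65.3 against 669, 711 and 653 CPM (log2 fold change -3.27, SE 0.191, adjusted p = 6.87e-07). Its neighbour Hspa1a, a near-identical copy, was at 19.8, 22.9 and 19.1 against 201, 203 and 198 (log2 difference -3.28, adjusted p = 5.15e-07). Hspa1a shares 19% of its exon length with Gm20481 and none with Hspa1b. Counts of these copies are uncertain, since reads may have been split between them. Egr3, an immediate early factor, was at 1.65, 2.59 and 1.84 against 16.4, 17.4 and 13.9 CPM (log2 difference -2.97, adjusted p = 4.47e-05), while Fos and Jun, with fold changes of -0.65 and -0.33, were not called. The summed level of the list was 4017 to 6882 CPM in perivascular progenitors and 10450 to 11660 in ICAM1+ preadipocytes, without overlap. It was 8081 to 9462 in DPP4+ progenitors and 3951 to 6598 in perivascular preadipocytes. These genes respond to tissue digestion and sorting as well as to signals in the tissue, and their part in the chemokine values was not tested.

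Antigen presentation genes were lower as well. Of 11 MHC class I presentation genes, 9 were lower and none higher, with a median of -0.9. The lower count was 6 without ICAM1+ library 2, its lowest value in any setting run. H2-K1, a classical class I heavy chain (chromosome 17, 33996017 to 34000347), was at 178, 129 and 144 against 331, 328 and 326 CPM (log2 fold change -1.13, SE 0.173, adjusted p = 0.000963), and Psmb8, a subunit of the immunoproteasome (chromosome 17, 34197721 to 34201454), at 8.31, 7.83 and 6.76 against 22.4, 18.6 and 19.4 (log2 fold change -1.4, SE 0.214, adjusted p = 0.000946). The populations did not overlap for either gene. Class I heavy chain genes are similar in sequence to one another, so their counts are uncertain. B2m, the shared light chain, is a single gene and was at 399, 302 and 308 against 545, 524 and 499 CPM (log2 difference -0.64, adjusted p = 0.0169). Of 21 interferon response genes, 5 were lower and none higher, with a median of -0.45. Irf1, an interferon-induced factor (chromosome 11, 53770014 to 53778374), was at 151, 82.5 and 83.3 against 265, 230.1 and 224 CPM (log2 fold change -1.18, SE 0.224, adjusted p = 0.00361). That count was 2 without ICAM1+ library 2 and 3 without ICAM1+ library 3, without any 1 perivascular progenitor library or with library totals as the scale. Pan-haematopoietic Ptprc was at 0.361, 2.19 and 0.649 against 1.96, 3.6 and 1.9 CPM (log2 difference -1.25, adjusted p = 0.27), and the 16 haematopoietic genes summed to 31.1 to 86.3 against 79.2 to 87.4 CPM, of which 2 were called lower. Their part in the immune gene values was not tested.

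Of 14 complement genes, 3 were higher, where 6.91% of all tested genes were, and the list's median was -0.19. A single member, C4b, was lower (2 members with the replicate block), a share near the 7.25% of all tested genes. C7, a component of the membrane attack complex (chromosome 15, 4988762 to 5063740), was at 17.7, 27.8 and 31.8 CPM in perivascular progenitors and 0.184, 0.194 and 0.308 in ICAM1+ preadipocytes (log2 fold change 6.78, SE 0.43, adjusted p = 1.26e-06). C3, the central component, was at 325 against 105 CPM (log2 difference 1.63, adjusted p = 0.000936). C4b was lower at 156 against 350.4 CPM (log2 difference -1.17, adjusted p = 0.0139), a call lost without ICAM1+ library 3 (-0.96, adjusted p = 0.0661). In cholesterol synthesis 5 of 20 genes were lower and none higher, with a median of -0.44. The count was 3 without ICAM1+ library 1, 1 without ICAM1+ library 2 and 3 without perivascular progenitor library 2. It was 9 and 8 without perivascular preadipocyte libraries 1 and 3, and 10 without the 3 libraries named above.

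**Figure D4:**
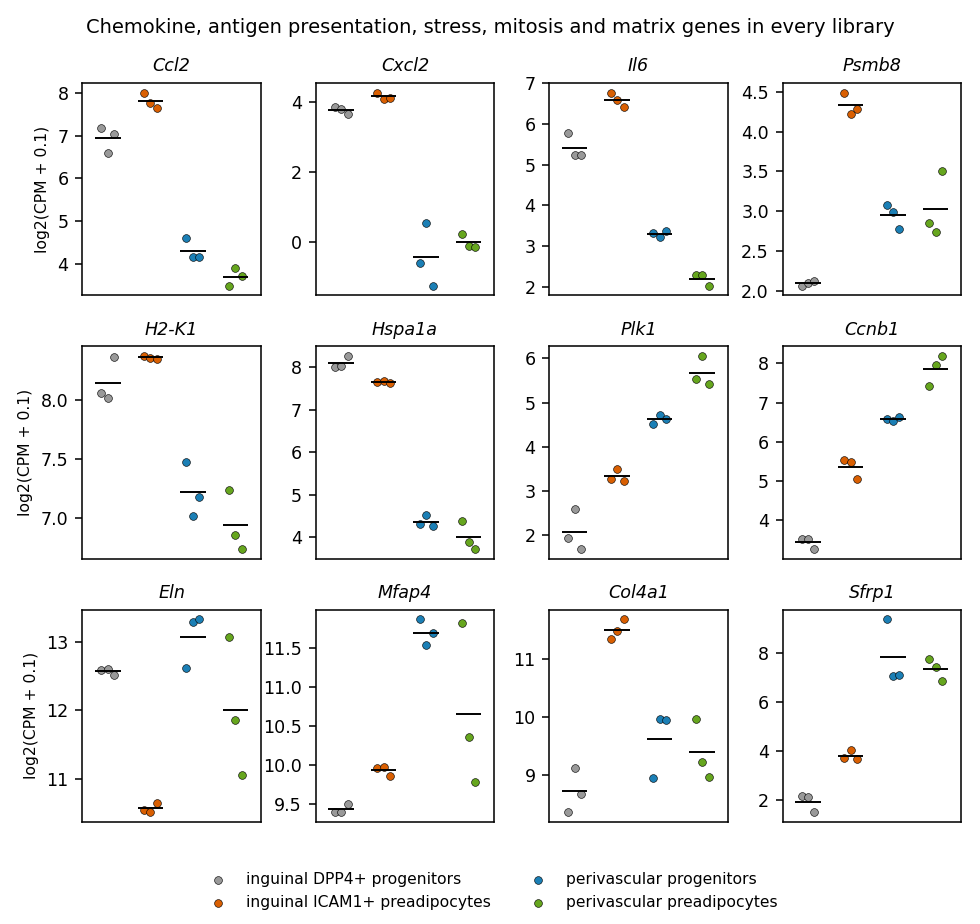
Each point is 1 library, as log2(CPM + 0.1), for 12 genes in the 4 groups, and the bar is the mean of 3 libraries. Ccl2, Cxcl2, Il6, Psmb8, H2-K1 and Hspa1a lie lower in perivascular progenitors than in ICAM1+ preadipocytes, while Plk1, Ccnb1, Eln, Mfap4 and Sfrp1 lie higher, with Sfrp1 highest in perivascular progenitor library 1.

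Markers of other cell types were among the largest fold changes. The 12 highest changes, among genes over 10 CPM in the higher group with no overlap, began with Upk1b and Msln, both of mesothelium, the lining of the body cavities. Msln, which encodes mesothelin (chromosome 17, 25748613 to 25754378), was at 39.3, 71.5 and 61 against 0.49, 0.155 and 0.36 CPM (log2 fold change 7.47, SE 0.609, adjusted p = 9.03e-06), and Upk1b (chromosome 16, 38773184 to 38800328) at 12.9, 28.1 and 22.6 against 0, 0.0387 and 0.257 (log2 fold change 7.66, SE 0.717, adjusted p = 2.53e-05), or 9.44 without ICAM1+ library 3 (adjusted p = 0.000115). Of 15 mesothelial genes, 10 were higher and 3 lower, the latter the keratins Krt8 and Krt18 and the claudin Cldn15. The list summed to 220.1 to 348 CPM in perivascular progenitors and 116 to 131 in ICAM1+ preadipocytes. Wt1, a defining transcription factor of mesothelium, was at 9.04, 11.3 and 8.55 against 0.306, 0 and 0 CPM (log2 difference 6.73, adjusted p = 4.72e-05), and 10.45 and 6 without ICAM1+ libraries 1 and 2 (adjusted p = 2.67e-05 and 0.000387). The share of these cells in the sorted pools, and their part in other genes that were higher, was not tested.

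Most genes of the mast cell and Schwann cell lists were lower in perivascular progenitors. Tpsb2, a mast cell tryptase (chromosome 17, 25366305 to 25369098), was at 0.155, 0 and 0.108 CPM in perivascular progenitors and 30.4, 33 and 16.4 in ICAM1+ preadipocytes (log2 fold change -8.1, SE 0.86, adjusted p = 6.42e-05, or -8.72 without perivascular progenitor library 1, adjusted p = 0.000218), and 6 of 8 mast cell genes were lower. Of 11 Schwann and neural genes, 7 were lower and 1 higher, the latter a share near the 6.91% of all tested genes. The Schwann list summed to 46.5 to 55.8 against 206 to 236 CPM and the mast cell list to 9.29 to 12.9 against 71.5 to 120, without overlap, and their part in other genes that were lower was not tested. The lower Schwann count was 4 without any 1 ICAM1+ library or perivascular progenitor library 3. Of 12 epithelial genes 6 were lower, among them Krt5 with 1 count in perivascular progenitors against 144, a ratio of 129 (95% counting interval 22.8 to 5130). Its fitted log2 fold change was -6.54, or -8.39 without perivascular progenitor library 3 (adjusted p = 0.00344).

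Some mural cell markers were lower. Of 12 pericyte genes 5 were lower and 1 higher, and of 15 smooth muscle genes 3 were lower and 1 higher. Over all tested genes 6.91% were higher and 7.25% lower, and both higher shares were near the former. Vtn, which encodes vitronectin (chromosome 11, 78499091 to 78502324), was at 1.45, 1.61 and 1.3 against 36.8, 40.5 and 42.7 CPM (log2 fold change -4.78, SE 0.368, adjusted p = 6.11e-06), and Notch3, a receptor of mural cells, at 35.6 against 131 (log2 difference -1.88, adjusted p = 0.00063). Myh11, the smooth muscle myosin (chromosome 16, 14194535 to 14291372), was at 14.6, 49.3 and 39 against 55.1, 52.3 and 82.6 CPM (log2 difference -0.88, adjusted p = 0.256), and Acta2, smooth muscle actin, at 149, 202 and 191 against 229, 208 and 265 (log2 difference -0.37, adjusted p = 0.491). Neither was called. Tagln, with 67.9% of its exon length shared with other genes, was at 0.103, 0.576 and 0.325 against 0.98, 0.813 and 1.39 CPM (log2 difference -1.66, adjusted p = 0.109). The smooth muscle list summed to 567 to 669 against 717 to 861 CPM and the pericyte list to 532 to 757 against 938 to 1066. Of 14 endothelial genes, with sums of 253 to 392 and 234 to 274 CPM, Vwf alone was called, higher at 68.4 against 12.4 CPM (log2 difference 2.46, adjusted p = 0.000936). Cdh5, a defining endothelial cadherin, was at 3.97 against 8.43 CPM (log2 difference -1.09, adjusted p = 0.0886). The remaining lists held few calls, with 1 of 11 cartilage and tendon genes higher, 1 of 7 skeletal muscle genes, 2 of 5 erythroid genes and 1 of 5 thymus genes lower, and 1 higher and 1 lower of 9 cell cycle inhibitors. With the replicate block, 0 cell cycle inhibitors were higher, and 1 endothelial and 1 cartilage gene were lower.

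**Figure D5:**
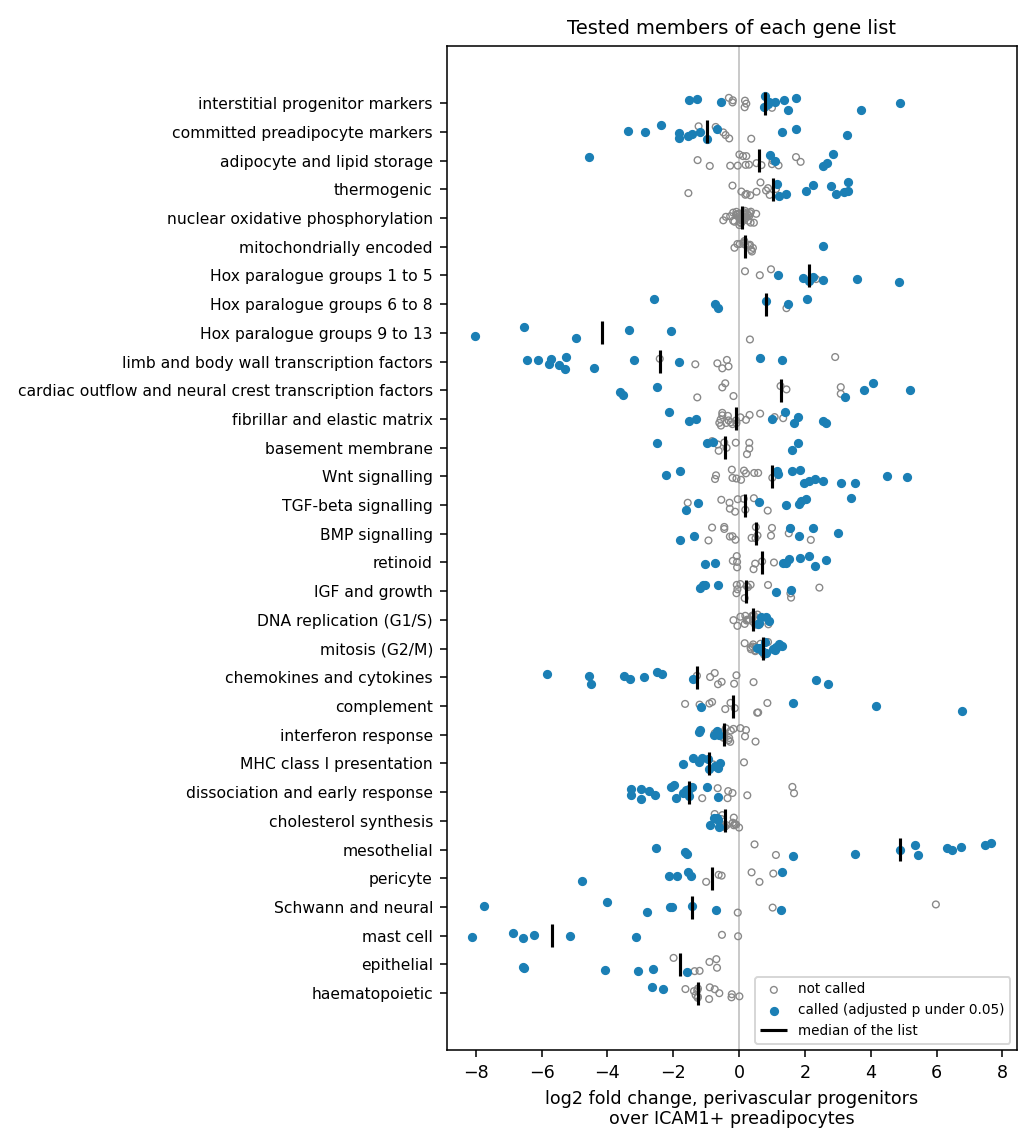
Each point is 1 tested gene of a list, placed by its log2 fold change of perivascular progenitors over ICAM1+ preadipocytes (x axis), filled where called, and the bar is the median of the list. Hox groups 1 to 5 lie to the right with a median of 2.14 and groups 9 to 13 to the left with -4.16, while the 36 nuclear genes of oxidative phosphorylation lie close to 0 with no call in the fit of all libraries.

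Genes outside these lists were also among the 12 highest and 12 lowest changes. Arhgap36, an inhibitor of protein kinase A (chromosome X, 49463945 to 49500244), was at 22.5, 23.5 and 21.3 CPM in perivascular progenitors and 0.245, 0.0774 and 0.565 in ICAM1+ preadipocytes (log2 fold change 6.27, SE 0.568, adjusted p = 2e-05), or 7.19 without ICAM1+ library 3 (adjusted p = 8.53e-05). Angptl7, a secreted angiopoietin-like protein (chromosome 4, 148495183 to 148500460), was at 18.9, 18.9 and 20.7 against 0.49, 0.271 and 0.206 CPM (log2 fold change 5.93, SE 0.611, adjusted p = 5.26e-05). Dmkn (4.99), Epyc (4.84), Cytl1 (4.66) and Itgbl1 (4.56), genes of secreted or matrix proteins, were also higher. Among the lowest were Npy2r, a receptor of neuropeptide Y (chromosome 3, 82538383 to 82548084), at 0.0516, 0.0576 and 0.325 against 17.2, 14.4 and 22.2 CPM (log2 fold change -6.89, SE 0.554, adjusted p = 8.37e-06, or -8.19 without perivascular progenitor library 3, adjusted p = 1.76e-05), and Emx2os, the antisense transcript of the homeobox gene Emx2 (log2 difference -4.64, adjusted p = 6.32e-07), whose counts cannot be told from those of Emx2 where they overlap, since the library kit does not mark strand. Gsn, an actin-severing protein (chromosome 2, 35256380 to 35307892), was lower as well, at 3731, 3772 and 3774 against 7689, 8339 and 8879 CPM (log2 fold change -1.14, SE 0.169, adjusted p = 0.000702).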

How the data were processed

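The deposited table holds raw counts per gene for 12 libraries, as whole numbers that the authors did not normalise. The submitters' processing notes name STAR 2.5.2a, DESeq2 1.26.0 and build mm10. No source used here gives the counting tool, the annotation or the strand setting. Per the labels' protocols, cells were sorted after collagenase D and dispase II digestion, and libraries were made with the SMART-Seq v4 kit and poly(A) selection. The authors' normalised and regularised log tables were not used.

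Genes were filtered with edgeR's filterByExpr (minimum count 10, groups given) over the 12 libraries. The filter does not require counts in every library, so a gene could pass through 1 group alone. Genes that passed were scaled by TMM and fitted with edgeR 4.0.16 (quasi-likelihood test, 1 term per group, Benjamini-Hochberg adjustment, threshold 0.05), so that all groups share the estimate of the spread. R 4.3.3, limma 3.58.1, DESeq2 1.42.0, Python 3.11.15, pandas 2.3.3 and matplotlib 3.10.9 were used. The script was tested on simulated data. Totals ran from 15614628 to 25674461 counts. Replicate pools measure only the spread between pools of mice. Gene positions and exon overlaps come from the mm10 annotation, and promoters from RefSeq (GRCm38.p6).

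Per the labels' protocols, equal replicate numbers come from the same mice, which pairs the samples. Same-numbered perivascular progenitor and ICAM1+ libraries had deviations from their group means that correlated at 0.08, -0.12 and 0.11.

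The comparison and the 40 gene lists were chosen with earlier results of these data known, so the lists are not independent evidence. Genes are named by rule: the 12 highest and 12 lowest changes among called genes over 10 CPM without overlap, fixed marker genes, up to 4 called members with the largest changes of each list (the 2 most abundant where none was called), the 12 smallest bounded changes among fat cell and progenitor lists, and the 6 most abundant genes called at 2-fold on each side. Some genes the rule picked are not reported here. Other genes were named after their values were seen: Fn1, Scara5, Meis1, Col1a1, Col1a2, Col3a1, Axin2, Tgfb1, Id1, Id2, Id3, Il6, Il33, Cxcl13, Cxcl9, Csf1, Fos, Jun, B2m, Ptprc and Cdh5. Also named outside the rule were Ly6c1, Lef1, Cxcl1, Col4a2, Lamb1, Col12a1, Krt8, Krt18 and Cldn15. The 21 alternatives were the replicate block, the 2 groups alone, 2 other scales, DESeq2, limma-voom, 2 other filters, and leaving out each library or 3 together.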

Additional observations from a re-analysis of the deposited data

How the results depend on the processing

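Of 162 named genes called, 127 kept the call under every one of the 21 alternatives that tested them. A further 35 lost it under at least 1, and 6 other named genes gained one. Some genes were not tested under every alternative. None changed sign while called. The replicate block gave 2372 calls against ICAM1+ preadipocytes in place of 2669. It ended the calls of Dact2, Hoxb1 (2.64, adjusted p = 0.057), Gas1 (2.67, 0.114), Bmp6 (2.76, 0.0594) and Fdps (-0.89, 0.0759), gave one to Fabp4, and changed no other call of a named gene. Without perivascular progenitor library 1, Gas1 was at 0.64 (adjusted p = 0.192) in place of 3.22 and Bmp6 at 1.27 (0.0938) in place of 3.

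Limma-voom with library weights called 5730 genes, 2960 higher and 2770 lower, with 10914 against perivascular preadipocytes and 225 and 179 inguinal step genes on the DPP4+ side. Without the 3 libraries together, 4663 were called, 2329 higher and 2334 lower, with 9893 against perivascular preadipocytes. With library totals as the scale, 7548 genes were called against DPP4+ progenitors, and 1046 and 224 step genes lay on the ICAM1+ side. Leaving out 1 library at a time gave 1523 to 3543 calls, 683 to 1704 higher and 840 to 1839 lower, 3916 to 8000 against perivascular preadipocytes, and 98 to 183 and 56 to 105 step genes on the DPP4+ side. The mean distance to DPP4+ libraries exceeded that to ICAM1+ libraries by 0.156 log2 units. This difference was 0.629 over the 2000 most variable genes, where perivascular preadipocytes lay nearest on average (1.537 against 1.58 for ICAM1+ preadipocytes), 0.24 with library totals, 0.115 with no count filter, 0.174 with the stricter filter and 0.174 without the 3 libraries, and 0.119 to 0.166 without 1 library. The cause of these shifts was not tested. With 3 pools per group, 7795 genes were neither called nor bounded within 2-fold in the fit of all libraries, which leaves their differences undecided there. Some of them, among them Pparg, Fabp4 and Adipoq, were called under other settings.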

Other observations

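The Ly6 family of small GPI-anchored and secreted proteins held 2 genes with large changes that no other list holds. Ly6d, a marker of keratinocytes and lymphoid progenitors, had 2 counts in the perivascular progenitor libraries together against 455 in ICAM1+ preadipocytes, a ratio of 204 (95% counting interval 56.1 to 1690). Its fitted log2 fold change was -7.38, or -10 without perivascular progenitor library 1 (adjusted p = 2.64e-05). Slurp1, a secreted member of the family, had 61 counts in perivascular progenitors and none in ICAM1+ preadipocytes, so that it was at least 22.7-fold higher in the former against a floor of 3 counts over the group. Ly6c1, a member abundant in adventitial fibroblasts and endothelium, was at 158, 114 and 101 CPM in perivascular progenitors and 326, 301 and 301 in ICAM1+ preadipocytes (log2 difference -1.31, adjusted p = 0.00282), without overlap. These intervals and floors cover counting error only, and the reads carry no molecular identifiers.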
